A study of Mus musculus with 17 samples.

Results

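10 genes that encode cyclic nucleotide phosphodiesterases (PDEs) were followed in left ventricular tissue: Pde1a, Pde1c, Pde2a, Pde3a, Pde3b, Pde4b, Pde4d, Pde5a, Pde7a and Pde9a. They were taken by gene symbol from a table of 21798 genes, and each was present in it. All 10 also passed the filter on low values, a CPM (reads scaled to the same total in every library) of at least 0.5 in at least 3 libraries, which left 16218 genes to test.

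PDEs break down the second messengers cAMP and cGMP, and so limit how long and how far within a cell these signals act. In cardiomyocytes cAMP carries the adrenergic signal to contraction and relaxation, while cGMP, made in response to nitric oxide and natriuretic peptides, acts through protein kinase G. The families differ in substrate and control: PDE1 enzymes are switched on by calcium and calmodulin, PDE2 is stimulated and PDE3 inhibited by cGMP, PDE4 and PDE7 act on cAMP, and PDE5 and PDE9 act on cGMP.

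Bulk sequencing of polyA RNA covered 17 libraries of left ventricular apex from male C57Bl6/J mice, each with an animal identifier of its own in the labels. The mice were 7 to 8 weeks old at surgery, either a sham operation (Sham) or transverse aortic constriction (TAC), in which a ligature narrows the aorta and loads the left ventricle with pressure. From 1 week after surgery all received 6 gavages over 2 weeks, of saline (Veh) or of 50 μg/kg 29P, an oral prodrug directed at the αvβ3 integrin, and tissue was taken 3 weeks after surgery. There were 5 libraries of Sham Veh, 3 of TAC Veh, 3 of Sham 29P and 6 of TAC 29P, named here by the S numbers in their labels. A homogenate of the apex mixes cell types, so fewer cells of a type and less RNA per cell cannot be told apart.

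The estimated depth was 14.2 to 23.8 M reads per library, and Sham 29P library S14 was the shallowest. Mitochondrially encoded genes took 29.1 to 40.0% of the values in Sham and 23.6 to 29.4% in TAC libraries. Defining cardiomyocyte markers were abundant throughout, with a summed level of 30705 to 46899 CPM for 6 genes. Libraries S19 and S20 (Sham Veh) and S18 (TAC 29P) also carried the 5 atrial markers, at a summed 1723 to 2666 CPM. The other 14 held 1.76 to 28.6 CPM. For the members, values without these 3 libraries are given where they end a call. The animal identifiers fall into 4 runs, S1 to S11, S12 to S14, S15 with S16, and S18 to S20. The labels do not call these runs batches. All but 1 of the TAC 29P libraries belong to the first run, so values within it are given beside those of TAC against Sham over both treatments. A further TAC Veh library that lay with Sham in a principal component plot had been left out before deposit, so the TAC Veh libraries were in part chosen for standing apart from Sham. This limit holds for every comparison with TAC Veh, also for 29P within TAC and for the difference in surgery effect between treatments.

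RefSeq promoter windows (GRCm38.p6) were at hand for 6 members, 18 windows in all, and are shown for the pair of calmodulin-dependent genes, which had the largest rises in TAC Veh. The Pde1a sequence comes from chr2:80129459-80129662, minus strand, and ends 46 bases before the most upstream start in the table, since the bases between are exonic in GENCODE vM21. The Pde1c sequence comes from chr6:56369635-56369884, minus strand, and holds the 250 bases before its most upstream start in the table. Capitals mark the NFAT core GGAAAA, read here on the other strand as TTTTCC.
Pde1a: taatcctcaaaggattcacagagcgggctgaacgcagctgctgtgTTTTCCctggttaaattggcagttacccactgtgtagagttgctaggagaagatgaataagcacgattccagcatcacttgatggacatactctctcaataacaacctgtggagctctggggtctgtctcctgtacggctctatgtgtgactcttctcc
Pde1c: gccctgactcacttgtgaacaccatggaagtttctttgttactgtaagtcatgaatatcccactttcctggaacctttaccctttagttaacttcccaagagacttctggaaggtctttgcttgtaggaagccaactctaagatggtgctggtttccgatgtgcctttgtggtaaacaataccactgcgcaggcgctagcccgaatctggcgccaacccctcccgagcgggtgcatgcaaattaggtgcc
The 250 bases before the start were searched on both strands in every window. The NFAT core was found in 3 of the 18 windows (of Pde1a, Pde2a and Pde4b) and in 20.4% of all 32851 windows. The CRE core TGACG, bound by cAMP-responsive factors, was found in 2 of the 18 (of Pde1a and Pde4b) and in 17.8% of all windows. The GC box GGGCGG was found in 2 of the 18 (of Pde2a and Pde5a) and in 32.7% of all windows, and the E-box CACGTG in none of the 18 and in 6.02% of all windows. These are matches of letters and not measured binding sites, and no window was given for Pde3a, Pde3b, Pde7a or Pde9a.

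Per kb of exon the members fell into an upper and a lower tier of 5 genes each. In Sham Veh the mean level was 6.59 ± 1.30 CPM per kb (SD, n = 5) for Pde2a, 5.33 ± 0.58 for Pde3a, 5.15 ± 1.90 for Pde7a, 3.15 ± 0.61 for Pde4b and 2.67 ± 0.40 for Pde1c. The lower tier ran from Pde1a at 1.07 ± 0.19 CPM per kb through Pde9a at 0.87 ± 0.11, Pde4d at 0.84 ± 0.31 and Pde3b at 0.68 ± 0.25 to Pde5a at 0.585 ± 0.18. The lowest Pde1c library, at 2.20 CPM per kb, was above the highest Pde1a library, at 1.36, while the neighbours within each tier overlapped in range. In TAC Veh Pde2a led with 8.15 ± 0.90 CPM per kb (n = 3) and no longer overlapped with Pde3a at 4.8 ± 0.39, and Pde1c stood at 4.28 ± 0.65 beside Pde7a at 4.37 ± 0.90. Pde5a at 0.89 ± 0.15 CPM per kb in TAC Veh lay above Pde4d at 0.81 ± 0.19 and Pde3b at 0.76 ± 0.28, with overlapping ranges. These levels divide by the exon length of all isoforms together and do not say which isoform was present. For Pde1c the deposited gene span does not match that of GENCODE vM21, the source of the exon lengths. The summed level of the 10 members was 241 to 298 CPM in Sham and 284 to 333 CPM in TAC libraries.

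**Figure D1:**
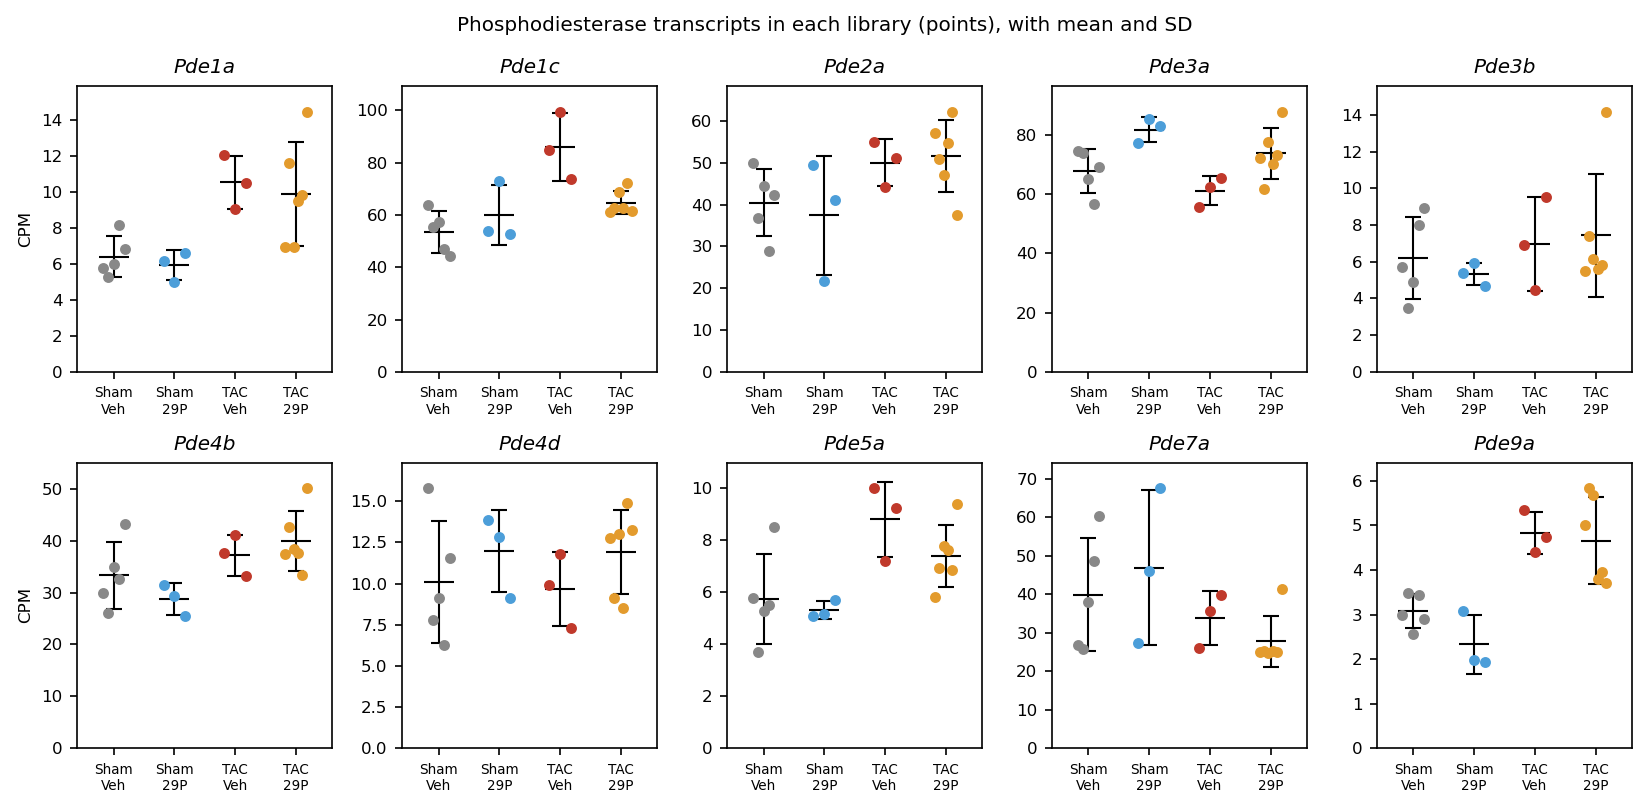
CPM (y axis, from 0 and scaled for each gene) of the 10 members in each library, by group (x axis). Points are libraries, the long bar is the group mean and the capped line 1 SD. Pde1a, Pde1c and Pde9a show no overlap between Sham Veh and TAC Veh, Pde1c none between TAC Veh and TAC 29P, and Pde7a splits within groups, with 5 of 6 TAC 29P libraries near 25 CPM.

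The comparison of TAC with Sham asked which members changed with pressure overload. Under Veh, Pde1a, Pde1c, Pde5a and Pde9a rose and no member fell, so 4 of 10 passed an unadjusted p of 0.05, where 37.4% of all genes tested were called higher and 3.48% lower. The median log2 fold change was 0.25 over the members and 0.35 over all genes tested. Under 29P, Pde1a, Pde2a, Pde4b, Pde5a and Pde9a rose and Pde7a fell, with 43.5% of all genes called higher and 1.96% lower, and with a median of 0.43 over the members and 0.37 over all genes. The shares of members called higher were thus close to those of all genes. Groups did not overlap for 3 members under Veh and 4 under 29P, all higher in TAC, against 27.6% and 25% of all genes. Over both treatments 6 members rose and 1 fell, with 55.4% of all genes called higher and 3.94% lower. The shift of all genes depends on scaling: with TMM factors, which set the bulk of genes equal between libraries, the median of all genes was 0.013 under Veh and 0.034 under 29P. On that scale Pde1c was the 1 member that rose and Pde3a the 1 that fell under Veh (12.4% and 13.8% of all genes called). Under 29P, again with TMM factors, Pde9a rose and Pde3a and Pde7a fell (16.3% and 12.6% of all genes). Over both treatments it left Pde1a and Pde9a higher and Pde3a and Pde7a lower (21.6% and 18.6% of all genes). Given the run as a covariate, Pde1a, Pde4b and Pde9a remained unadjusted calls under 29P, at 0.59, 0.39 and 0.76, as did Pde7a, at -0.35, and no member passed after adjustment (limma, adjusted p of 0.060 or more).

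Pde1a, on chr2:79834453-80129458, encodes a calmodulin-dependent PDE that prefers cGMP. Its level in Sham Veh was 5.80, 5.28, 5.99, 8.18 and 6.84 CPM in S5, S6, S13, S19 and S20, in Sham 29P 6.18, 5.0 and 6.63 CPM, and in TAC Veh 12.1, 9.10 and 10.5 CPM. All TAC Veh libraries were above all Sham Veh libraries. In TAC 29P it ran from 6.97 through a median of 9.67 to 14.5 CPM, above all 3 Sham 29P libraries. The log2 fold change was 0.73 ± 0.22 (SE; limma, adjusted p = 0.027) under Veh and 0.70 ± 0.21 (adjusted p = 0.023) under 29P. The exact permutation test gave p = 0.0179 for 3 against 5 libraries, the smallest it allows, and p = 0.0357 for 6 against 3. With TMM factors the changes were 0.39 (adjusted p = 0.23) and 0.36 (adjusted p = 0.23), and neither passed the threshold. Over both treatments Pde1a rose by 0.71 ± 0.15 (limma, adjusted p = 0.0015), by 0.38 ± 0.14 with TMM factors (adjusted p = 0.056), and by 0.69 ± 0.19 within the run S1 to S11 (6 TAC against 3 Sham libraries, adjusted p = 0.023).

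Pde1c, on chr6:56069804-56652487, encodes a calmodulin-dependent PDE that hydrolyses cAMP and cGMP. It stood at 63.8, 55.3, 57.4, 46.9 and 44.2 CPM in Sham Veh, at 54.0, 73.0 and 52.6 CPM in Sham 29P and at 84.7, 99.4 and 73.6 CPM in TAC Veh. The 6 TAC 29P libraries lay between 61.1 and 72.1 CPM, with a median of 62.5, all under the lowest TAC Veh library. Under Veh the log2 fold change was 0.68 ± 0.14 (limma, adjusted p = 0.0046), the smallest p among the members. It was the only member still called higher under Veh with TMM factors, at 0.35 ± 0.16 (unadjusted call, adjusted p = 0.17). Under 29P the difference between TAC and Sham was 0.13 ± 0.13 (adjusted p = 0.47), and -0.21 with TMM factors (adjusted p = 0.38). Over both treatments the rise reached 0.41 ± 0.10 (limma, adjusted p = 0.0027), against 0.070 with TMM factors (adjusted p = 0.67) and 0.24 ± 0.11 within the run S1 to S11 (adjusted p = 0.11), where it did not pass.

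Pde2a, on chr7:101421691-101512827, encodes a PDE that cGMP stimulates to break down cAMP. Sham Veh libraries held 50.1, 36.7, 44.4, 29.0 and 42.4 CPM, Sham 29P 49.6, 21.8 and 41.0 CPM, TAC Veh 55.0, 44.1 and 51.2 CPM, and TAC 29P 37.6 to 62.2 CPM with a median of 52.8. The lowest value of all was in library S14, and the groups overlapped in every comparison. The rise under 29P of 0.53 ± 0.22 on the log2 scale (limma, adjusted p = 0.071) passed only unadjusted, and no longer did so without S14, at 0.18, without S11, at 0.47, or with the run as a covariate, at 0.45 (adjusted p = 0.18). Under Veh the change was 0.32 ± 0.23 (adjusted p = 0.28). Over both treatments it was 0.43 ± 0.16 (limma, adjusted p = 0.032), and did not pass without S14, at 0.25, or with TMM factors, at 0.089 (adjusted p = 0.64). Within the run S1 to S11 it was 0.27 ± 0.12 (limma, adjusted p = 0.097), an unadjusted call.

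Both PDE3 genes encode enzymes that cGMP inhibits, and PDE3A is the form that cardiac PDE3 inhibitors are known for. Pde3a, on chr6:141249269-141507448, stood at 74.7, 73.8, 65.2, 56.5 and 69.1 CPM in Sham Veh, at 77.2, 85.3 and 82.9 CPM in Sham 29P and at 55.7, 62.5 and 65.3 CPM in TAC Veh. TAC 29P libraries ranged from 61.6 to 87.7 CPM with a median of 72.7. As deposited, the TAC libraries overlapped with Sham, and the change was -0.15 ± 0.12 under Veh (limma, adjusted p = 0.34) and -0.16 ± 0.11 under 29P (adjusted p = 0.28). Relative to the bulk of genes Pde3a fell: with TMM factors by 0.48 ± 0.14 on the log2 scale under Veh (limma, adjusted p = 0.039) and by 0.50 ± 0.14 under 29P (adjusted p = 0.028), and on that scale TAC and Sham did not overlap in either treatment. With TMM factors 9.51% of all genes under Veh and 6.44% under 29P stood below Sham without overlap. Without the 3 libraries high in atrial markers the fall over both treatments also passed as deposited, at -0.21 ± 0.07 (limma, adjusted p = 0.027), against -0.15 ± 0.08 (adjusted p = 0.12) with them. Within the run S1 to S11 it was -0.15 ± 0.11 (adjusted p = 0.30).

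Pde3b, on chr7:114415281-114539251, was low and variable, at 3.49 to 8.94 CPM in Sham Veh, 4.69 to 5.92 CPM in Sham 29P and 4.45 to 9.54 CPM in TAC Veh. In TAC 29P 5 libraries held 5.50 to 7.42 CPM and S18 held 14.2 CPM. The gene did not pass in either surgery comparison, with changes of 0.18 ± 0.33 under Veh and 0.39 ± 0.32 under 29P. S18, S19 and S20 were among the 4 highest Pde3b libraries, at 14.2, 8.0 and 8.94 CPM, beside summed adipocyte markers of 5.60, 1.43 and 8.19 CPM, against 0.089 to 2.64 CPM in the other libraries. The part of atrial tissue or fat in these Pde3b values was not tested. With the run of identifiers as a covariate the rise over both treatments passed, at 0.40 ± 0.16 (limma, adjusted p = 0.049), against 0.29 ± 0.23 (adjusted p = 0.303) without it. Within the run S1 to S11 it did not pass, at 0.38 ± 0.18 (adjusted p = 0.11).

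PDE4 enzymes are specific for cAMP and are held near receptors and calcium channels by anchoring proteins. Pde4b, on chr4:102087543-102607259, held 29.9, 26.0, 34.9, 32.6 and 43.2 CPM in Sham Veh, 31.5, 29.3 and 25.5 CPM in Sham 29P and 37.5, 41.0 and 33.1 CPM in TAC Veh. The TAC 29P libraries ran from 33.4 to 50.0 CPM, with a median of 38.0, all above Sham 29P. Under 29P Pde4b rose by 0.47 ± 0.15 (limma, adjusted p = 0.027), against 0.13 with TMM factors (adjusted p = 0.55). Its exact permutation p was 0.0119, which no division of 6 against 3 can undercut. Under Veh it was 0.17 ± 0.15 (adjusted p = 0.395), and it passed, unadjusted, without the 3 libraries high in atrial markers, at 0.30 ± 0.14 (limma, adjusted p = 0.13), or given the run as a covariate, at 0.37 ± 0.14 (adjusted p = 0.068). Over both treatments it was 0.32 ± 0.11 (limma, adjusted p = 0.019), -0.016 with TMM factors, and 0.38 ± 0.10 within the run S1 to S11 (adjusted p = 0.019). Pde4d, on chr13:108449948-109953461, encodes a cAMP-specific PDE known for its place near the ryanodine receptor. It held 6.30 to 15.8 CPM in Sham Veh, 9.15 to 13.9 CPM in Sham 29P, 7.30 to 11.8 CPM in TAC Veh and 8.49 to 14.9 CPM in TAC 29P. Its changes were -0.016 ± 0.27 under Veh and -0.011 ± 0.26 under 29P. The 95% intervals ran from -0.58 to 0.54 and from -0.55 to 0.53, so changes within them, in either direction, were not excluded. Within the run S1 to S11 the change of Pde4d was -0.10 ± 0.24 (limma, adjusted p = 0.75).

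Pde5a, on chr3:122728947-122859374, encodes the cGMP-specific PDE that sildenafil inhibits. Sham Veh libraries held 5.76, 3.71, 5.28, 5.50 and 8.49 CPM, Sham 29P 5.07, 5.15 and 5.69 CPM, TAC Veh 9.98, 7.19 and 9.22 CPM and TAC 29P 5.81 to 9.38 CPM with a median of 7.26. S20, a library with atrial markers, was the 1 Sham library within the TAC Veh range. The rise was 0.65 ± 0.21 under Veh (limma, adjusted p = 0.036; exact permutation p = 0.089) and 0.46 ± 0.21 under 29P (an unadjusted call, adjusted p = 0.088). The call under 29P was lost on leaving out any 1 of S4, S14, S8, S9 or S18, with changes of 0.39 to 0.45, and given the run as a covariate, at 0.40 (adjusted p = 0.22). With TMM factors the changes were 0.32 (adjusted p = 0.29) under Veh and 0.13 (adjusted p = 0.68) under 29P. Over both treatments it was 0.56 ± 0.15 (limma, adjusted p = 0.0055), 0.22 ± 0.13 with TMM factors (adjusted p = 0.21), and 0.63 ± 0.19 within the run S1 to S11 (adjusted p = 0.029), where all 6 TAC libraries were above all 3 Sham libraries, as for 30.3% of all genes.

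Pde9a, on chr17:31386210-31476310, encodes a high-affinity PDE for cGMP, and was the member whose TAC and Sham libraries stood apart over both treatments. It held 2.99, 3.49, 2.57, 3.44 and 2.90 CPM in Sham Veh, 3.09, 1.97 and 1.94 CPM in Sham 29P, and 5.34, 4.40 and 4.74 CPM in TAC Veh. The TAC 29P libraries held 3.71 to 5.83 CPM, with a median of 4.48. All 9 TAC libraries were above all 8 Sham libraries (exact permutation p = 4.11e-05, the smallest possible), which was so for 9.52% of all genes, and with TMM factors the ranges overlapped. The rise was 0.66 ± 0.21 under Veh (limma, adjusted p = 0.033), 1.01 ± 0.20 under 29P (adjusted p = 0.0039) and 0.83 ± 0.15 over both (adjusted p = 0.00038). With TMM factors it was 0.32 (adjusted p = 0.35) under Veh, 0.67 ± 0.21 (adjusted p = 0.045) under 29P and 0.50 ± 0.15 (adjusted p = 0.019) over both. Within the run S1 to S11 it rose by 0.61 ± 0.18 (limma, adjusted p = 0.027). With about 28 reads in its lowest library, Pde9a had the least counting precision of the members.

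**Figure D2:**
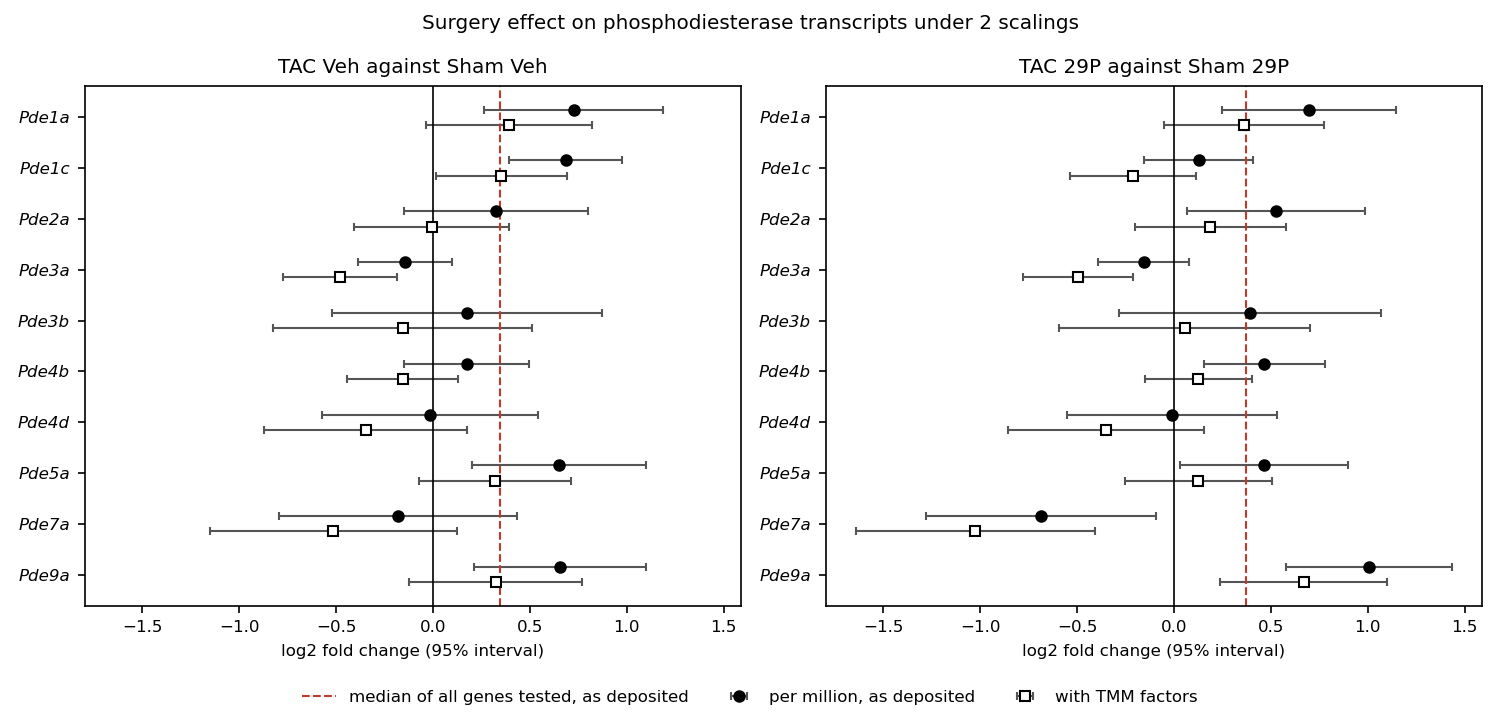
Log2 fold change of TAC against Sham (x axis, with 95% interval) of each member (y axis), under Veh (left) and 29P (right). Filled circles use the deposited values and open squares TMM factors, and the dashed line is the median of all genes tested as deposited, 0.35 and 0.37. The squares lie about as far to the left of the circles as the dashed line lies from 0. Among the squares, Pde1c has an interval above 0 in the left panel only and Pde9a in the right panel only. The squares of Pde3a have intervals under 0 in both, and that of Pde7a in the right panel only.

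Pde7a, on chr3:19223108-19311322, encodes a cAMP-specific PDE, and its level followed the run of animal identifiers more than surgery or treatment. In the run S1 to S11 all 9 libraries held 24.8 to 27.3 CPM, 3 Sham and 6 TAC together. In the other runs the 8 libraries held 35.7 to 67.5 CPM, so the first run did not overlap with the rest, which was so for 0.191% of all genes. Within the other runs the TAC libraries were the lower: 35.7 CPM in S12 against 38.0 and 46.1 CPM in S13 and S14, 39.7 CPM in S16 against 67.5 CPM in S15, and 41.3 CPM in S18 against 48.5 and 60.3 CPM in S19 and S20. A test of the run terms beside the group means gave F = 29.4 for Pde7a (limma, adjusted p = 0.0008), rank 34 of 16218 genes, and 3.17% of all genes passed the adjusted threshold of 0.05. Among the other members the adjusted p was 0.059 for Pde3b and 0.16 or more for the remaining 8. With TMM factors Pde3b and Pde4b also passed for the run terms (limma, adjusted p = 0.023 and 0.035), as did 5.55% of all genes.

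The fall of Pde7a with TAC under 29P, -0.69 ± 0.28 (limma, an unadjusted call, adjusted p = 0.068), set 5 libraries of the first run and S18 against 1 library of it (27.3 CPM) and 2 of other runs (46.1 and 67.5 CPM). It no longer passed without S15, at -0.38, or without S14, at -0.65. With TMM factors it was -1.03 ± 0.29 (limma, adjusted p = 0.034). With the run as a covariate it was -0.35 ± 0.14 (limma, adjusted p = 0.12), and -0.27 ± 0.09 over both treatments (adjusted p = 0.016). Without the covariate the change over both treatments was -0.43 ± 0.20 (limma, adjusted p = 0.079), an unadjusted call that 12 of the 17 fits with 1 library left out did not keep, with values of -0.61 to -0.28, and that was lost without the 3 libraries high in atrial markers, at -0.32 (adjusted p = 0.13). With TMM factors it was -0.77 (limma, adjusted p = 0.012). TMM factors and the run together, a fit chosen after seeing the data, gave -0.60 ± 0.09 over both treatments (limma, adjusted p = 0.00031). Within S1 to S11 the difference was -0.076 ± 0.079 (limma, adjusted p = 0.46), while the exact permutation of those 9 libraries gave p = 0.0238, with 5 of 6 TAC libraries below all 3 Sham libraries. Under Veh it was -0.18 ± 0.29 (adjusted p = 0.65), 0.16 without the libraries high in atrial markers (adjusted p = 0.66), and -0.51 with TMM factors (adjusted p = 0.29).

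The genes with the pattern most like that of Pde7a over the 17 libraries were Klf9, a glucocorticoid-responsive transcription factor, Cry1, a repressor of the circadian clock, and Wee1, a cell cycle kinase whose transcription the clock is known to drive. Their root mean square difference from Pde7a on the centred log2 scale was 0.17, 0.23 and 0.23, the smallest of 14054 genes. Klf9 held 99.6 to 133 CPM in S1 to S11 and 149 to 247 CPM in the other runs, Cry1 4.63 to 7.24 and 8.03 to 11 CPM, and Wee1 6.56 to 9.58 and 14.7 to 20.8 CPM. Each of the 3 thus held S1 to S11 below all other libraries, as Pde7a did. They were chosen for that likeness, so this is a description and not a test.

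**Figure D3:**
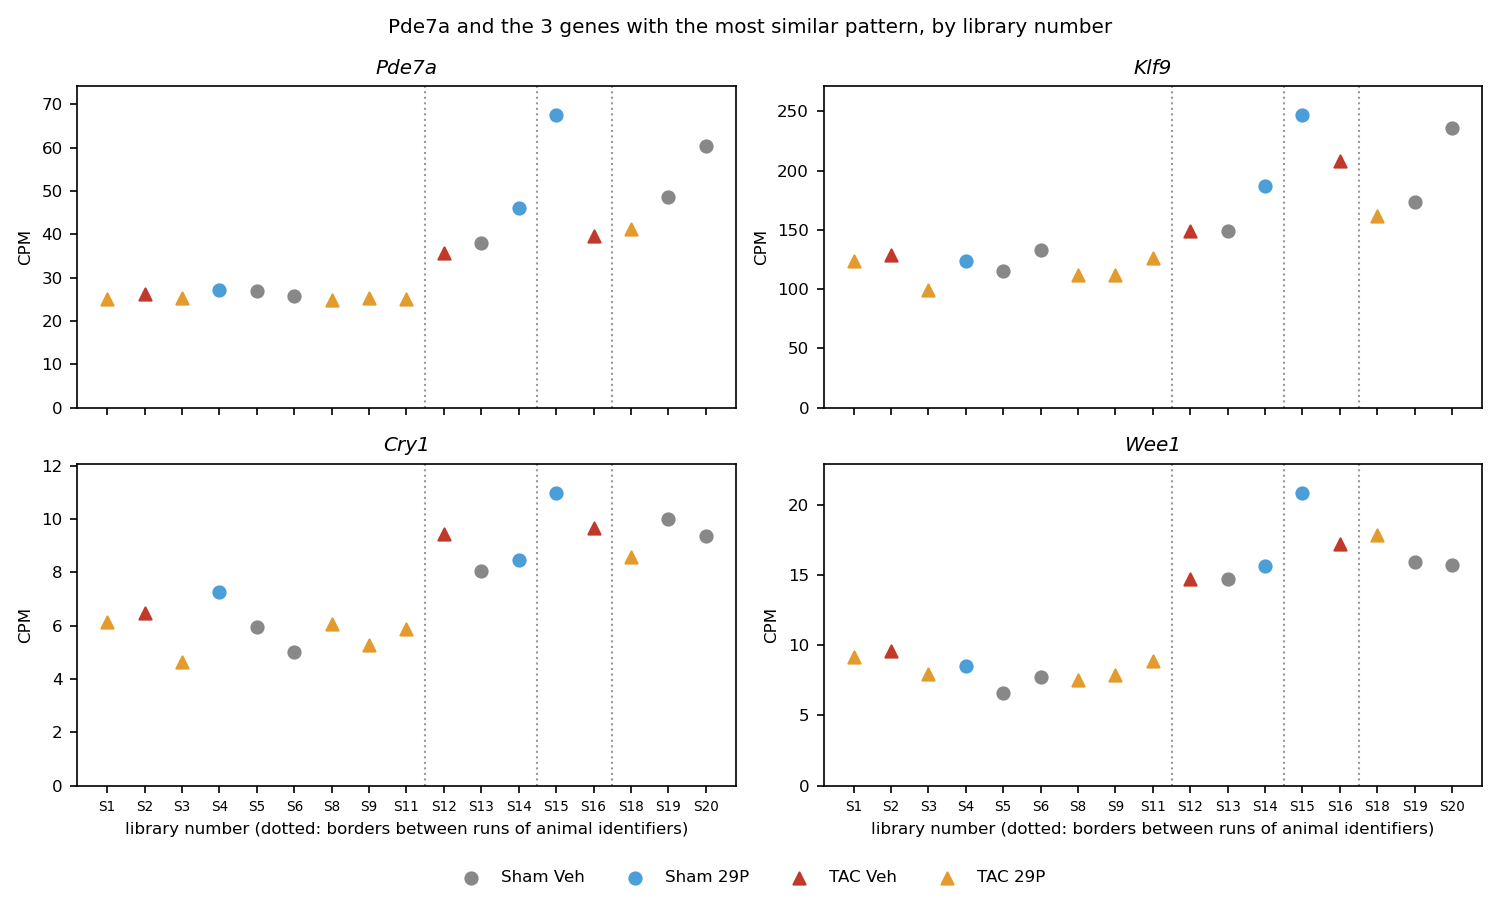
CPM (y axes, from 0) of Pde7a and of the 3 genes nearest to it in pattern, for the 17 libraries in order of their number (x axis). Circles are Sham, triangles TAC, colours the 4 groups, and dotted lines the borders between runs of animal identifiers. In all 4 panels every library from S1 to S11 lies below every library from S12 to S20.

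Pde1a, the member with the largest rise in TAC Veh, was nearest in pattern to C1ra, a complement protease (0.14), Gpm6b, a membrane glycoprotein (0.15), and Fut11, a fucosyltransferase (0.16).

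The comparison of 29P with Veh within TAC asked which members changed with treatment in loaded hearts. Pde1c fell and Pde3a rose, 2 of 10 members at an unadjusted p of 0.05, where 1.05% of all genes were called higher and 0.931% lower. After adjustment in limma neither passed, nor did any other of the 16218 genes (0%). Pde1c was lower by 0.40 ± 0.13 on the log2 scale (limma, adjusted p = 1), with 61.1 to 72.1 CPM in TAC 29P against 73.6 to 99.4 CPM in TAC Veh. The groups did not overlap (exact permutation p = 0.0119, the smallest for 6 against 3), which was so for 0.987% of all genes in this direction. The unadjusted call held with TMM factors, at -0.37, and given the run as a covariate, at -0.36, but not without S12, the highest library, at -0.29. Pde3a was higher by 0.27 ± 0.11 (limma, adjusted p = 1; exact permutation p = 0.071), with 5 of 6 TAC 29P libraries above all 3 TAC Veh libraries. Its value was 0.30 with TMM factors, and it lost the unadjusted call on leaving out S2, at 0.20, S8, at 0.25, or S18, at 0.21.

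The other 8 members did not pass within TAC, with log2 differences between -0.29 for Pde7a and 0.30 for Pde4d. The cGMP-specific enzymes differed by -0.25 ± 0.21 for Pde5a, with a 95% interval from -0.69 to 0.18, and by -0.072 ± 0.20 for Pde9a, from -0.50 to 0.36. Pde1a differed by -0.13 ± 0.21, from -0.58 to 0.32. All 5 red blood cell markers had lower medians in TAC 29P than in TAC Veh. Their sum was 3082 to 4992 CPM in TAC Veh and 1036 to 4151 CPM in TAC 29P, where S3 lay within the Veh range. No gene passed after adjustment in this comparison. TAC Veh holds 1 library of each of the first 3 runs against 5 of the first in TAC 29P. The part of blood content in the Pde1c difference was not tested.

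Within Sham, 29P against Veh called 1 member, Pde3a, which rose by 0.28 ± 0.12 (limma, an unadjusted call, adjusted p = 0.65), where 1.6% of all genes were called higher and 5.89% lower. Its 77.2 to 85.3 CPM in Sham 29P were above the 56.5 to 74.7 CPM of Sham Veh in every library (exact permutation p = 0.0357), as for 0.629% of all genes. The call was lost given the run as a covariate, at 0.24 (adjusted p = 0.90), without the libraries high in atrial markers, at 0.20 (adjusted p = 0.91), in a fit of these 2 groups alone, and on leaving out S13, S19, S14 or S15, with values of 0.21 to 0.27. Pde9a came next, at -0.42 ± 0.21 (adjusted p = 0.67), with 1.94, 1.97 and 3.09 CPM against 2.57 to 3.49 CPM. It passed, unadjusted, without S4, at -0.64, and without S13, at -0.49. Without the libraries high in atrial markers Pde7a also passed here, at 0.56 (limma, adjusted p = 0.91). With TMM factors Pde3a was at 0.31 within Sham, and the groups overlapped (exact permutation p = 0.071). Pde3a was higher with 29P within TAC and within Sham, as an unadjusted call in each that single libraries ended.

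**Figure D4:**
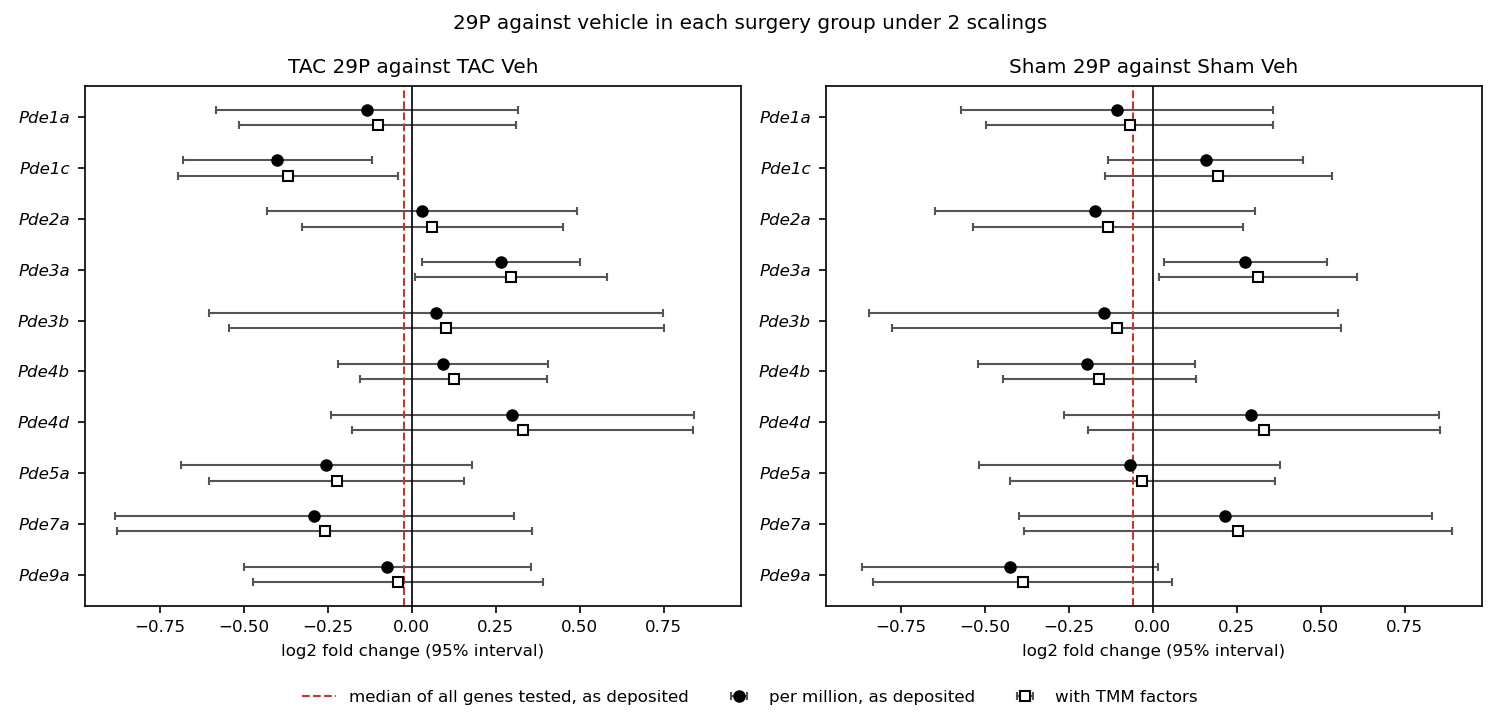
Log2 fold change of 29P against Veh (x axis, with 95% interval) of each member (y axis) within TAC (left) and Sham (right), as deposited (filled circles) and with TMM factors (open squares). The dashed line is the median of all genes tested as deposited, -0.021 and -0.058. Intervals clear 0 for Pde1c and Pde3a on the left and for Pde3a on the right.

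The test of whether the surgery effect differed between treatments called 1 member, Pde1c, at -0.56 ± 0.19 on the log2 scale (limma, an unadjusted call, adjusted p = 0.998), where 1.98% of all genes were called higher and 0.863% lower. Its surgery effect was 0.68 under Veh and 0.13 under 29P, and the Veh value rests on TAC Veh libraries chosen in part for standing apart from Sham. The difference was -0.47 given the run as a covariate and -0.56 with TMM factors, both still past the unadjusted threshold. Without the 3 libraries high in atrial markers it was -0.40 and did not pass, and Pde7a was then called in its place, at -0.97 ± 0.34 (limma, adjusted p = 0.96).

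Other genes of cyclic nucleotide signalling were read from 8 lists, of which 83 of 93 genes were tested. In TAC Veh against Sham Veh 33 of them rose and 4 fell as deposited, near the 37.4% and 3.48% of all genes. With TMM factors 12 rose and 14 fell, near the 12.4% and 13.8% of all genes. The median log2 fold change as deposited was 0.68 for the other PDEs, 0.50 for adenylyl cyclases, 0.59 for natriuretic peptides, guanylyl cyclases and NO synthases, 0.39 for receptors and G proteins, 0.25 for effectors, 0.34 for anchoring proteins, 0.16 for kinase targets and 0.51 for exporters, beside 0.35 for all genes. The list of other PDEs held 9 tested genes, of which 5 rose and none fell: Pde8a, which acts on cAMP, by 0.68 ± 0.13 (limma, adjusted p = 0.0041), Pde10a, which acts on both messengers, by 1.12 ± 0.24 (adjusted p = 0.0066), and Pde7b, the paralogue of Pde7a, by 0.78 ± 0.22 (adjusted p = 0.021). These 3 also passed, unadjusted, with TMM factors, at 0.35, 0.79 and 0.45. The 2 not named singly, Pde1b and Pde6d, had adjusted p over 0.05.

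Among makers of the messengers, 2 of 9 adenylyl cyclases rose in TAC Veh, where 37.4% of all genes rose and 3.48% fell as deposited. Adcy7 rose by 1.64 ± 0.22 (limma, adjusted p = 0.0005) and Adcy3 by 1.23 ± 0.34 (adjusted p = 0.018). Of 11 natriuretic peptide, guanylyl cyclase and NO synthase genes 7 rose (1 rose and 1 fell with TMM factors), among them Nppb, which encodes B-type natriuretic peptide, at 1.81 ± 0.26 (limma, adjusted p = 0.0010), and Npr1, its receptor cyclase, at 0.54 ± 0.19 (adjusted p = 0.047). Of 12 receptors and G proteins 6 rose and 1 fell (2 and 4 with TMM factors), among them Grk5, a kinase that desensitises receptors, at 0.94 ± 0.20 (limma, adjusted p = 0.0054), and the inhibitory Gnai2 at 0.68 ± 0.18 (adjusted p = 0.016). With TMM factors Adcy7, Adcy3, Nppb, Grk5 and Gnai2 stayed past the threshold, and Npr1 was at 0.21 and did not pass.

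Among readers of the messengers, 5 of 18 effectors rose (2 rose and 2 fell with TMM factors), where 37.4% of all genes rose and 3.48% fell as deposited. Among the 5 were Prkar1a, a regulatory subunit of protein kinase A, at 0.91 ± 0.13 (limma, adjusted p = 0.0011), Prkg1, the cGMP-dependent kinase, at 0.85 ± 0.17 (adjusted p = 0.0038), and Popdc3, a cAMP-binding membrane protein, at 0.56 ± 0.14 (adjusted p = 0.015). Of 11 anchoring proteins 4 rose (1 rose and 2 fell with TMM factors), including Akap13 at 0.86 ± 0.15 (limma, adjusted p = 0.0021) and Pde4dip, which binds PDE4D, at 0.61 ± 0.19 (adjusted p = 0.031). Of 11 kinase targets 2 rose and 3 fell (1 and 5 with TMM factors): Vasp was higher by 0.74 ± 0.22 and Mybpc3 by 0.57 ± 0.18, and Tnni3, cardiac troponin I, fell by 0.54 ± 0.14 (limma, adjusted p = 0.025, 0.030 and 0.015). Both cyclic nucleotide exporters rose, Abcc5 by 0.50 ± 0.16 and Abcc4 by 0.52 ± 0.18 (limma, adjusted p = 0.033 and 0.040). With TMM factors Popdc3, Pde4dip, Mybpc3, Abcc5 and Abcc4 no longer passed, at 0.17 to 0.28. Within TAC, 29P called 4 of the 83 genes higher, where 1.05% of all genes were, and 1 lower, where 0.931% were. Leaving out 1 library at a time gave 0 to 5 higher and 0 to 3 lower. Higher were Gucy1a1, a subunit of the NO receptor cyclase, at 0.57 ± 0.23, Adrb1, the β1-adrenoceptor, at 0.53 ± 0.24, Hcn4, a pacemaker channel, at 0.79 ± 0.34, and Ppp1r1a, a phosphatase inhibitor, at 0.85 ± 0.40, and lower was Prkar1a at -0.29 ± 0.13 (limma, adjusted p = 1 for each).

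Markers of other cell types moved with surgery beside the members. The summed level of 7 fibroblast markers was 760 to 1376 CPM in Sham and 1325 to 2991 CPM in TAC libraries, that of 7 macrophage markers 176 to 362 and 401 to 666 CPM, that of 6 endothelial markers 461 to 958 and 799 to 1235 CPM, and that of 7 smooth muscle and pericyte markers 872 to 1253 and 1164 to 1616 CPM. In TAC Veh against Sham Veh 6 of 7 fibroblast, 7 of 7 macrophage, 3 of 6 endothelial and 3 of 7 smooth muscle and pericyte markers were called higher, all 5 red blood cell markers rose, and 2 of 6 cardiomyocyte markers fell, beside the 37.4% and 3.48% of all genes. With TMM factors 4 fibroblast, 7 macrophage, 1 endothelial, 2 smooth muscle and pericyte and 5 red blood cell markers were higher and 4 cardiomyocyte markers lower. Of the markers that passed the filter, 1 of 4 atrial and 1 of 2 Schwann cell markers fell and neither of 2 adipocyte markers changed. The atrial marker Dkk3 had a higher median in TAC Veh, 21.6 CPM, than in Sham Veh, 2.76 CPM. Sham Veh includes S19 and S20, with summed atrial markers of 2666 and 2132 CPM, against 12.7 to 23.9 CPM in TAC Veh. Bmp10, a defining atrial gene, had a median of 0 in every group, which does not describe those single libraries. The part of cell composition in the members' changes was not tested. Exons of Pde2a, Pde3a, Pde5a, Pde7a and Pde9a overlap with exons of other annotated genes, and since the strand setting of the counting is not given in the sources used here, reads in those stretches cannot be assigned with certainty.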

How the data were processed

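RNA from 17 samples of left ventricular apex was sequenced after polyA selection. The authors aligned the reads in Partek Flow using STAR 2.3.7 and the mm10 genome, removed libraries with few reads and a TAC Veh library that grouped with Sham, and deposited CPM, each value raised by 0.0001. The counting tool and strand setting are not given in the sources used here. Only 79.1 to 82.3% of low values were whole multiples of the smallest step (tolerance 0.02), so read counts were not restored. Limma was used, as planned for CPM values, and not the test planned for counts. The step gave the estimated depths and 28 to 2032 estimated reads per member and library.

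Log2 of the deposited CPM was fitted in limma 3.58.1 (R 4.3.3) with 1 mean per group over all 17 libraries and a variance trend, for 16218 genes with a CPM of 0.5 in 3 libraries. A gene was called at an unadjusted limma p of 0.05, the level used in the study. Adjusted p-values are Benjamini-Hochberg over all genes tested. Exact permutation tests were two-sided over all divisions of the libraries. The fit was tested on simulated data. Alternatives were TMM factors (trimmed mean of M values, computed directly, with 30% of log ratios and 5% of levels trimmed at each end), totals without 16 mitochondrial genes, other filters, added constants of 0.1 and 1, adjusted calls, fits of single pairs of groups, the run of animal identifiers as covariate, each library left out, and no libraries high in atrial markers. The fit within S1 to S11, the fit with TMM factors and run together and the test of run terms were chosen after seeing the data.

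The members and all lists were chosen with earlier results of these data known. Beyond the members, the text names at most 3 genes per list with the smallest p in TAC Veh against Sham Veh (adjusted p of 0.05 or less, mean CPM of at least 1), and the 3 genes most like the members with the largest rise and fall there. The genes called within TAC, Pde1b and Pde6d were named after their values were seen. Exon lengths and overlaps are from GENCODE vM21 and promoters from RefSeq. Replicates are separate animals by their identifiers, and p-values measure the spread between them.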

Additional observations from a re-analysis of the deposited data

Results flagged for a closer look

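Of 20 combinations of a member with a group of 5 or 6 libraries, 2 held a library far from the others, and chance gives about 1 in 20. Library S18 of TAC 29P stood apart for Pde3b, at 14.2 CPM against 5.50 to 7.42 CPM in the other 5, and for Pde7a, at 41.3 CPM against 24.8 to 25.4 CPM. S18 is the 1 TAC 29P library outside the run S1 to S11 and the 1 of that group high in atrial markers, and for Pde3b, at 4.45 to 9.54 CPM in S12 to S16, these cannot be told apart. For Pde7a the libraries S12 to S16, outside that run and without high atrial markers, held 35.7 to 67.5 CPM.

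The surgery effect on Pde1c differed between treatments by -0.56 on the log2 scale (limma, an unadjusted call, adjusted p = 0.998), being 0.68 under Veh and 0.13 under 29P.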

How the results depend on the processing

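The scale had the largest effect on the calls. With TMM factors 1 member was called higher and 1 lower in TAC Veh against Sham Veh (4 and 0 as deposited), 1 and 2 in TAC 29P against Sham 29P (5 and 1) and 2 and 2 over both treatments (6 and 1). Exact permutation then passed for 1, 3, 0 and 4 members under Veh, under 29P, for 29P within Sham and over both treatments (3, 5, 1 and 7 as deposited). It was run for the members only, so these counts have no share of all genes to be set against. On that scale the pathway genes gave 12 higher and 14 lower under Veh, 15 and 13 under 29P, and 2 lower for 29P within TAC. With totals that leave out mitochondrial genes, 4 members were higher and 1 lower under Veh, beside 3869 and 1056 of 16203 genes. The 4 were those called as deposited, and of them only Pde1c passed after adjustment (limma, adjusted p = 0.034). Under 29P 3 were higher and 2 lower, beside 4464 and 876 genes. Over both treatments 4 were higher, without Pde2a and Pde4b, and 2 lower, beside 5988 and 1354 genes. Calls on adjusted p gave 3 higher and 0 lower under 29P, beside 5097 and 181 of 16218 genes. They gave 0 for both treatment comparisons and the interaction, and 0 lower over both treatments, beside 499 genes. The run as covariate gave 3 higher under 29P, beside 4685 genes. For 29P within Sham it gave 0, beside 352 genes higher and 539 lower. The fit of those groups alone also gave 0 there, beside 77 and 391 genes. Chosen after seeing the data, the run S1 to S11 alone gave 0 lower over both treatments, beside 404 of 16218 genes. TMM factors with the run, also chosen then, gave 3 higher and 2 lower, beside 3469 and 2968 genes. The causes of these changes were not tested.

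Signs turned mainly among members that did not pass. With TMM factors Pde2a, Pde3b and Pde4b went to -0.0079, -0.16 and -0.16 under Veh, Pde1c to -0.21 under 29P (-0.051 with totals without mitochondrial genes), and over both treatments Pde3b to -0.051 and Pde4b, called as deposited, to -0.016. With TMM factors and the run, Pde2a, called as deposited, went to -0.0023 over both treatments. With the run as covariate Pde4d went to 0.14 under Veh, and 29P within TAC gave Pde2a -0.044, Pde3b -0.039 and Pde7a 0.047. For 29P within Sham it gave Pde1a 0.092, Pde3b 0.19 and Pde5a 0.089. Without the libraries high in atrial markers these were 0.053, 0.21 and 0.13, Pde7a was 0.16 under Veh and Pde3b -0.13 for 29P within TAC.

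With each library left out in turn, the members called higher and lower numbered 4 to 4 and 0 to 0 under Veh, 3 to 5 and 0 to 1 under 29P, 0 to 1 and 0 to 1 for 29P within TAC, 0 to 1 and 0 to 1 within Sham, 5 to 6 and 0 to 2 over both treatments, and 0 to 0 and 1 to 2 for the interaction. In the same fits 3824 to 6728 of 16218 genes were called higher under Veh and 4311 to 7742 under 29P. Over both treatments 7866 to 9323 were called higher. For 29P within TAC 73 to 289 genes were higher and 98 to 329 lower. Exact permutation, run for the members only, passed for 2 to 4, 2 to 6, 1 to 2, 0 to 1 and 6 to 7 members. Pathway genes gave 23 to 36 and 1 to 5 under Veh, 23 to 39 and 1 to 3 under 29P, and 0 to 5 and 0 to 3 for 29P within TAC. Signs changed for Pde3b (-0.086 to 0.46) and Pde4d (-0.17 to 0.17) under Veh, Pde4d (-0.19 to 0.11) under 29P and over both treatments (-0.10 to 0.081), and for 29P within TAC in Pde2a (-0.057 to 0.12), Pde3b (-0.22 to 0.33) and Pde9a (-0.14 to 0.0027). For 29P within Sham they changed in Pde1a (-0.19 to 0.013), Pde2a (-0.41 to 0.18), Pde3b (-0.33 to 0.0067), Pde5a (-0.21 to 0.086) and Pde7a (-0.093 to 0.56). Of the other settings for single genes 454 kept direction and side of the threshold, 33 lost and 12 gained a call.

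With 3 libraries in TAC Veh and in Sham 29P the intervals of most members span a change in either direction, and Pde9a rests on 28 reads in its lowest library. No paired analysis was possible because the groups share no replicate number. The runs of animal identifiers, which span groups, entered as a covariate instead.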

Other observations

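Among PDE genes outside the 10 members, Pde4a had medians of 32.6 CPM in Sham Veh and 36.3 CPM in TAC Veh, with a log2 difference of 0.035 (limma, adjusted p = 0.93). Pde4c, Pde8b and Pde11a did not pass, with differences of 0.13, 0.094 and 0.85. The photoreceptor subunits Pde6a, Pde6g and Pde6h stayed under 0.5 CPM in every library, while Pde6d, which encodes a carrier of prenylated proteins, had medians of 23.2 CPM in Sham Veh and 28.8 CPM in TAC Veh. These genes were named after their values were seen.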
